A study of Mus musculus with 16 samples.

Results

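The 10 genes described here encode acute-phase proteins that fat can make for itself: Saa1, Saa2 and Saa3 (serum amyloid A), Hp (haptoglobin), Lcn2 (lipocalin 2), Orm1 and Orm2 (orosomucoids, also called alpha-1-acid glycoproteins), Cp (ceruloplasmin), Serpina3n (an antichymotrypsin-like protease inhibitor) and Hpx (hemopexin). They were chosen by name, as the entries of the expression table that carry these symbols, and all 10 were found among 20101 genes. Of these, 8 reached 1 FPKM in at least 4 of 16 libraries and were tested, while Saa1 and Saa2 stayed below that level. FPKM scales fragments by the length of the transcript and the size of the library, so levels of different genes can be compared per length. Read counts cannot be had from it, and the depth behind a value is unknown.

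The libraries were made from epididymal white fat of mice aged 21 weeks, and the series asks how apolipoprotein A-IV, which travels on lipoproteins, bears on inflammation of this tissue. The 16 libraries form 4 groups of 4 mice: WT-labelled on chow (5% fat), KO-labelled on chow, WT-labelled on a high-fat diet (HFD, 60% fat, begun at 5 weeks of age) and KO-labelled on HFD. The titles write KO where the genotype field writes ApoA4 knockdown, and the labels give neither the strain nor how the gene was targeted. Apoa4 RNA was higher in the KO-labelled libraries, at 1.96 to 5.96 FPKM against 0.0900 to 0.290 FPKM on chow and 4.93 to 9.63 FPKM against 0 to 0.290 FPKM on HFD, so KO and WT name labels here and not a measured loss of the transcript.

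The acute-phase response is the shift in secreted proteins that follows infection, injury or lasting inflammation, driven by interleukin 6, interleukin 1 and TNF through the transcription factors STAT3, C/EBP and NF-kB. The liver makes most of these proteins, but adipocytes also carry RNA for haptoglobin, orosomucoid and ceruloplasmin, and mouse Saa3 is made largely outside the liver, by adipocytes and macrophages. Several members handle iron or haem: haptoglobin binds free haemoglobin, hemopexin binds haem, ceruloplasmin oxidises iron so that it can leave cells, and lipocalin 2 binds the siderophores with which bacteria take up iron. Serum amyloid A proteins ride on lipoproteins and attract leukocytes, orosomucoids bind small molecules and dampen leukocyte activation, and Serpina3n blocks serine proteases of leukocytes.

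Promoters of the Saa genes, Lcn2 and Cp are shown because these genes carry the results below, and because the 3 Saa genes differ so much in level. Each line is the 250 bases before a RefSeq start site (GRCm38.p6), read 5′ to 3′ on the strand of the gene, with matches to a C/EBP pattern in capitals. The pattern searched was TTGCNNAA or, on the other strand, TTNNGCAA.
Saa3, chr7:46715677-46715926, minus strand: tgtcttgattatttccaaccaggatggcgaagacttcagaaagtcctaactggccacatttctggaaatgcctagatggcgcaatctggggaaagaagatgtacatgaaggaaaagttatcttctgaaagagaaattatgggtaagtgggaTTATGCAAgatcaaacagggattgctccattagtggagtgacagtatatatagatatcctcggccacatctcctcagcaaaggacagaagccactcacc
Saa1, chr7:46742981-46743230, minus strand: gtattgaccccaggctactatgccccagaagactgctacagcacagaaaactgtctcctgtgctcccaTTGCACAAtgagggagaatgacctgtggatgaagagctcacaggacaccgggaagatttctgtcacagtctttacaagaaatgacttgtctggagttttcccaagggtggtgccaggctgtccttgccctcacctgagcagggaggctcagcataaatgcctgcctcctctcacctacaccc
Saa2, chr7:46751583-46751832, plus strand: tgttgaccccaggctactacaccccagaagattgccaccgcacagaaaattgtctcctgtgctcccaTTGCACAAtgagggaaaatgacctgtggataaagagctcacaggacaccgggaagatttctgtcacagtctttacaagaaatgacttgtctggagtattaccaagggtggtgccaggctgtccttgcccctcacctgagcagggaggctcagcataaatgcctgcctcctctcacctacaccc
Lcn2, chr2:32387740-32387989, minus strand: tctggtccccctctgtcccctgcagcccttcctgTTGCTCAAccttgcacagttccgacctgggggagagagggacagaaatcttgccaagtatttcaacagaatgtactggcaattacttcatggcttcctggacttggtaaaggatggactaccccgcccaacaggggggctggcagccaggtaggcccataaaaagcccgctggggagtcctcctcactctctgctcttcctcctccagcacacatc
Cp, chr3:19956999-19957248, plus strand: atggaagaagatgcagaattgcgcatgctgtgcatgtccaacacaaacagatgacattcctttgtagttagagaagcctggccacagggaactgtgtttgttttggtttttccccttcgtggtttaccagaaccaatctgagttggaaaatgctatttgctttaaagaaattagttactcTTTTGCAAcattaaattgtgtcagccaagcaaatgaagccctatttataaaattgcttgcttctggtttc
The Saa1 and Saa2 promoters were identical at 95.6% of 249 aligned bases, while Saa3 matched Saa1 at 64.4% of 216 aligned bases and carried its C/EBP pattern from position -99, counted from the start site, against -182 in Saa1. The pattern began at -216 in Lcn2 and at -70 in Cp, whose other listed promoter had none. Promoters of Orm2 and Hpx held it as well, so it was found for 7 of the 8 members with a listed promoter. Of 32851 promoters of the same length, 9.56% held it. That share counts promoters, whereas the member count is by gene and includes the nearly identical Saa1 and Saa2. Serpina3n had no such match but was the 1 member with a match to the NF-kB pattern searched (4.11% of all promoters), from position -171. The STAT pattern TTCNNNGAA (7.02% of all promoters) was found in none of them. A match describes letters in this window and is not a measured binding site.

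The libraries checked out as fat, but they did not hold the same mix of cells. Summed FPKM of 12 adipocyte markers was 33350 to 35650 in chow WT and 17810 to 41390 in chow KO, lowest in replicate 2. It was 5671 to 18830 in HFD WT and 3471 to 15290.0 in HFD KO. That of 12 macrophage markers was 1015 to 1107 in chow WT and 812 to 998 in chow KO. On HFD it was 1921 to 9476 in WT-labelled and 2619 to 8442 in KO-labelled libraries. With HFD, 9 and 10 of 12 adipocyte markers fell and 10 and 11 of 12 macrophage markers rose, in WT-labelled and KO-labelled mice. In bulk tissue, fewer cells of a type and less RNA per cell cannot be told apart. Genes of the epididymis were abundant in chow KO replicate 2 (15 markers summing to 13130.0 FPKM) and HFD KO replicate 4 (5861 FPKM), less so in HFD KO replicate 2 (342 FPKM), and at 43.0 FPKM or less elsewhere. Summed FPKM of 12 hepatocyte markers was 40.9 to 334 in chow WT, highest in replicate 1, and 8.92 to 27.6 in chow KO. It was 2.25 to 102 in HFD WT and 4.08 to 97.1 in HFD KO.

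In lean fat, haptoglobin led the members by level and the liver-type Saa genes came last. Mean FPKM in chow WT was 1283 ± 50.9 (SD, n = 4) for Hp, 341 ± 34.1 for Serpina3n, 170 ± 23.4 for Orm1 and 90.5 ± 7.87 for Cp. It was 10.6 ± 3.21 for Saa3, 7.20 ± 4.07 for Lcn2, 2.80 ± 1.96 for Hpx, 1.90 ± 0.749 for Orm2, 0.270 ± 0.111 for Saa1 and 0.10 ± 0.129 for Saa2. Haptoglobin ranked 33rd to 37th of all genes in the chow WT libraries and 6th in HFD WT replicate 4, its lowest rank being 73rd in HFD KO replicate 2. The order of the 4 groups by mean differed from gene to gene, and neighbouring groups in that order overlapped for every member except Saa3 and Cp, each of which split between the diets.

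**Figure D1:**
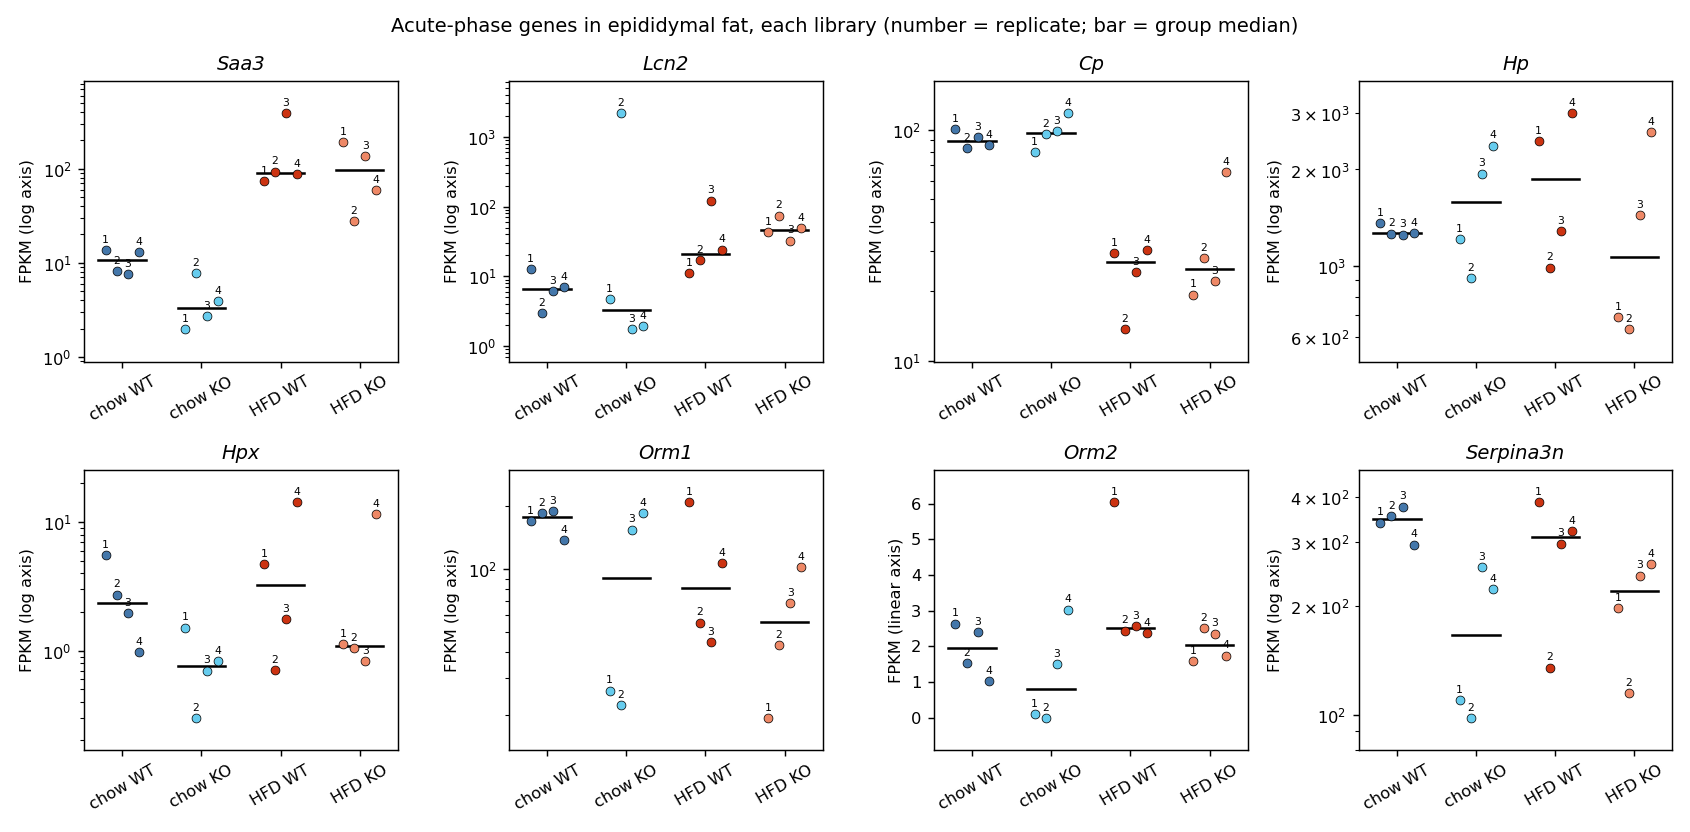
FPKM of the 8 tested members in each of the 16 libraries, by diet and genotype label, on log axes except for Orm2 (linear axis, since it reaches 0). Points are libraries with their replicate number and bars are group medians. Saa3 separates HFD from chow upwards and Cp downwards in both genotypes, and Lcn2 reaches 2161 FPKM in chow KO replicate 2.

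High-fat feeding moved 2 of the 8 tested members, in opposite directions and in both genotypes: Saa3 rose and Cp fell. In the WT-labelled mice, these 2 of 8 stand against 41.9% of all tested genes called (24.6% higher and 17.2% lower; limma, Benjamini-Hochberg adjusted p under 0.05). In KO-labelled mice they stand against 38.9% (23.5% higher and 15.3% lower), so the count of members called is not above the background. Of all genes called, 58.8% were higher in WT-labelled and 60.5% in KO-labelled mice, against 45.8% and 42.3% after quantile normalization. The median difference of the 8 members was 0.42 (log2 of FPKM + 1) in WT-labelled and 0.52 in KO-labelled mice, against 0.06 and 0.08 for all tested genes. The groups of both diets did not overlap for 2 of 8 members in each genotype, against 46.9% and 28.7% of all tested genes.

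Saa3 carried the serum amyloid A signal of this fat. Its level was 13.6, 8.10, 7.55 and 13.1 FPKM in chow WT, and 74.3, 93.2, 388 and 88.5 FPKM in HFD WT. In KO-labelled mice it was 1.97, 7.72, 2.72 and 3.90 FPKM on chow and 194, 27.8, 136 and 59.2 FPKM on HFD. Every HFD library lay above every chow library, and HFD WT replicate 3 stood far above the other 3 of its group. On the log2(FPKM + 1) scale, which understates changes of low values, the rise was 3.48 (SE 0.58, adjusted p = 0.000423) in WT-labelled and 4.15 (SE 0.58, adjusted p = 0.000191) in KO-labelled mice, or 11.1-fold and 17.7-fold. The call held in all 27 alternatives of each comparison, with a difference of 2.93 to 3.72 in WT-labelled and 3.73 to 5.43 in KO-labelled mice.

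Saa1 and Saa2, the serum amyloid A genes that dominate in liver, were near the limit of detection. Saa1 lay between 0 and 0.660 FPKM in 15 libraries and reached 2.06 FPKM in HFD WT replicate 3. Saa2 was listed at 0 in 8 libraries and reached its highest value, 0.660 FPKM, in the same library, which also held the highest Saa3. The Saa1 and Saa2 transcripts were identical at 94.4% of 606 aligned bases, so reads may have been split between them, whereas Saa3 matched Saa1 at 76.3% of 520 aligned bases. All 3 genes lie within a short stretch of chromosome 7 (Saa3 46711998 to 46719615, Saa1 46740497 to 46743181 and Saa2 46751833 to 46754313, GRCm38.p6).

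Lcn2, which encodes the siderophore-binding lipocalin 2, was higher on HFD in most libraries, but 1 chow library decided its test. Its level was 12.7, 2.95, 6.17 and 6.95 FPKM in chow WT and 11.2, 17.2, 121 and 24.1 FPKM in HFD WT. In KO-labelled mice it was 4.68, 2161, 1.75 and 1.92 FPKM on chow and 43.1, 74.2, 32.5 and 48.9 FPKM on HFD. Only the lowest HFD WT library fell within the chow WT range, and outside chow KO replicate 2 the KO-labelled diets did not overlap.

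Summed FPKM of 12 neutrophil markers, genes of a cell that carries Lcn2 in its granules, was 12.9 to 17.9 in chow WT, 8.10 to 15.5 in chow KO, 22.5 to 60.02 in HFD WT and 20.03 to 291 in HFD KO, and their part in the Lcn2 values was not tested. Of 5 tested, 1 rose and 1 fell in WT-labelled and 2 rose and 1 fell in KO-labelled mice. By limma, S100a8 was higher (1.96, adjusted p = 0.0278, and 2.88, adjusted p = 0.00401). Its call held in 20 of 27 alternatives in WT-labelled and in all 27 in KO-labelled mice. The neutrophil elastase gene Elane was lower (-0.99, adjusted p = 0.00137, and -1.12, adjusted p = 0.000884). Elane was near the floor, at 0.950 to 1.94 FPKM in chow WT and 0.660 to 1.88 FPKM in chow KO. It reached at most 0.390 FPKM in HFD WT and 0.310 FPKM in HFD KO. Only chow libraries, where it was higher, brought it into the test, so its fall is weak evidence about the list. S100a8, named after its values were seen, reached 166 FPKM in HFD KO replicate 1, the larger part of that library's sum. The value of 2161 FPKM stood in the chow library that was rich in epididymal RNA, where the epididymal lipocalins Lcn8 and Lcn9 reached 2469 and 2788 FPKM against at most 1.57 and 2.09 FPKM in the other 15 libraries. Lcn8, Lcn9 and Crisp1 were named after their values were seen. HFD KO replicate 4, in which the epididymal gene Crisp1 reached 3799 FPKM but Lcn8 0.260 FPKM, had 48.9 FPKM of Lcn2, inside the range of its group. How much of the Lcn2 RNA in chow KO replicate 2 came from epididymis was not tested.

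With all libraries, the HFD difference of Lcn2 was 1.94 (SE 1.57, adjusted p = 0.339) in WT-labelled and 1.45 (SE 1.57, adjusted p = 0.486) in KO-labelled mice, not past the threshold. Without chow KO replicate 2 it was 1.94 (adjusted p = 0.0149) in WT-labelled and 3.76 (adjusted p = 0.00057) in KO-labelled mice, and both passed. In WT-labelled mice the difference itself did not move, since that library is in neither group, and what changed was the estimate of spread that the 4 groups share. A fit of the 2 WT-labelled groups alone gave an adjusted p of 0.0421, and fits without the 2 or 3 libraries with epididymal genes gave 0.0166 and 0.017. Over all 27 alternatives, Lcn2 passed in 4 for WT-labelled and in 3 for KO-labelled mice.

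**Figure D2:**
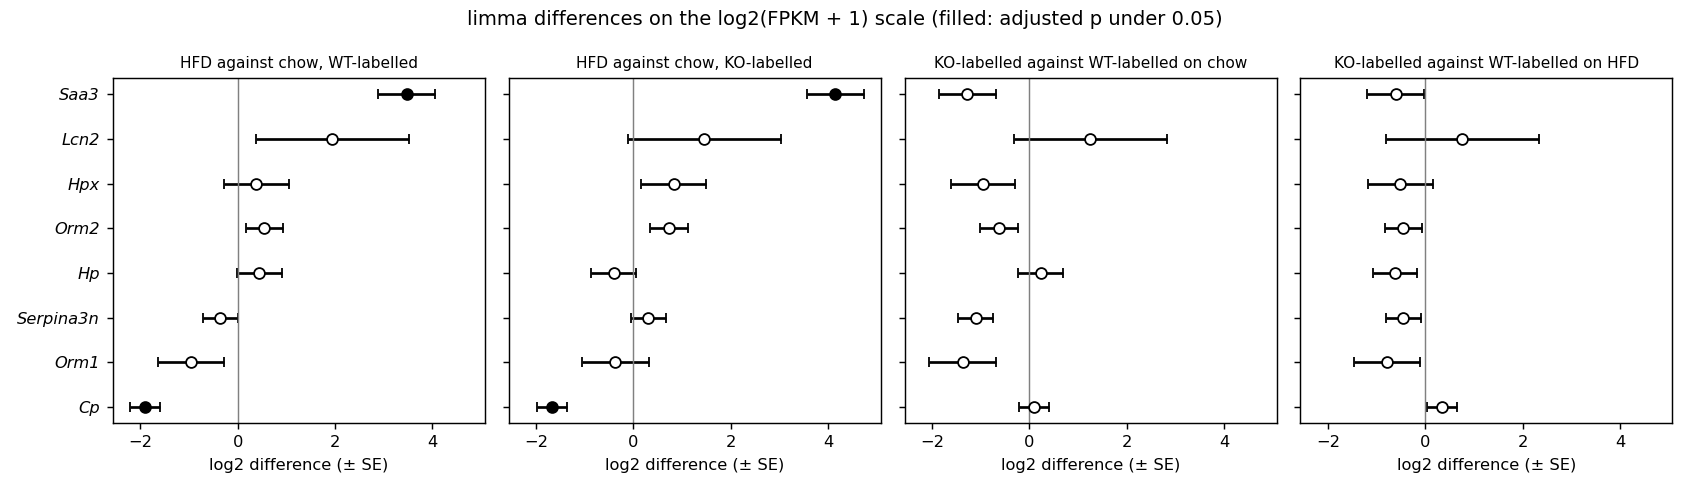
Differences of the 8 tested members in the 4 comparisons of 2 groups, on the log2(FPKM + 1) scale with their SE from limma; filled points have an adjusted p under 0.05. Saa3 and Cp are filled in both diet comparisons, no member is filled in either genotype comparison, and the bars of Lcn2 are the longest.

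Ceruloplasmin, the ferroxidase that lets iron leave cells through ferroportin, fell with HFD. Cp stood at 100.65, 83.2, 92.7 and 85.6 FPKM in chow WT and at 29.2, 13.7, 24.3 and 30.1 FPKM in HFD WT. It stood at 80.2, 95.2, 98.4 and 117 FPKM in chow KO and at 19.4, 27.8, 22.2 and 65.6 FPKM in HFD KO. All chow libraries lay above all HFD libraries, with HFD KO replicate 4 the nearest to chow.

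The fall of Cp was -1.91 (SE 0.31, adjusted p = 0.000342) in WT-labelled and -1.67 (SE 0.31, adjusted p = 0.00114) in KO-labelled mice. It held in all 27 alternatives of each comparison, between -2.03 and -1.67 in WT-labelled and between -2.18 and -1.47 in KO-labelled mice. Cp (chromosome 3, 19956933 to 20009750) has exons that overlap Hps3 on the opposite strand, and with the strand of the libraries not given in the sources used here, reads of both genes cannot be told apart. Adipocyte markers fell in the same comparisons (median -1.39 and -1.50). The ratio of Cp to their mean log2 level differed between diets by -0.08 in WT-labelled mice (exact permutation p = 0.714) and by 0.43 in KO-labelled mice (exact permutation p = 0.4), with groups that overlapped.

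Hp, the haemoglobin scavenger, was abundant everywhere and did not differ between diets beyond the spread of its groups. Its level was 1359, 1259.5, 1251 and 1262 FPKM in chow WT, a range of 1.09-fold, and 2448, 986, 1284 and 2996 FPKM in HFD WT, a range of 3.04-fold. In KO-labelled mice it was 1213, 912, 1942 and 2377 FPKM on chow and 690.0, 633, 1438 and 2625 FPKM on HFD, a range of 4.15-fold. HFD libraries thus lay on both sides of the lean level in each genotype. The difference was 0.45 (SE 0.46, adjusted p = 0.457) in WT-labelled and -0.41 (SE 0.46, adjusted p = 0.503) in KO-labelled mice, and no alternative brought it past the threshold.

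Hpx, the haem scavenger, was low in nearly every library. It ranged from 0.980 to 5.54 FPKM in chow WT and from 0.300 to 1.51 FPKM in chow KO. On HFD it stood at 4.72, 0.710, 1.77 and 14.3 FPKM in WT-labelled and at 1.13, 1.04, 0.830 and 11.6 FPKM in KO-labelled mice, with 1 high library in each group. Alb, the hepatocyte gene for albumin, was 2.23 FPKM in the HFD WT library with 14.3 FPKM of Hpx, 39.2 FPKM in the HFD KO library with 11.6 FPKM, and 165 FPKM in chow WT replicate 1, where Hpx was 5.54 FPKM. The diet differences were 0.38 (adjusted p = 0.67) and 0.82 (adjusted p = 0.343).

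Orm1, an orosomucoid, was steady in chow WT and scattered in the other groups. It stood at 169, 185, 188 and 137 FPKM in chow WT and at 26.2, 22.4, 154 and 185 FPKM in chow KO. On HFD it stood at 209, 55.4, 44.9 and 106 FPKM in WT-labelled and at 19.4, 43.4, 68.8 and 102 FPKM in KO-labelled mice. The chow KO libraries fell into a low and a high pair, which covered nearly the whole range of the series.

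The diet difference of Orm1 was -0.96 (SE 0.68, adjusted p = 0.279) in WT-labelled and -0.37 (SE 0.68, adjusted p = 0.694) in KO-labelled mice. Orm2 lay between 0 and 6.04 FPKM, with differences of 0.55 (adjusted p = 0.268) and 0.73 (adjusted p = 0.147). Without chow KO replicate 4, the highest of its group at 3.03 FPKM, the latter became 1.11 (adjusted p = 0.0234) and passed. Orm3, the third orosomucoid gene, fell from 8.17 ± 1.26 to 0.688 ± 0.827 FPKM in WT-labelled mice (difference -2.54, adjusted p = 0.00103) and from 10.99 ± 8.95 to 0.483 ± 0.474 FPKM in KO-labelled mice (-2.67, adjusted p = 0.00102). The Orm1 and Orm2 transcripts were identical at 91.0% of 775 aligned bases and the Orm1 and Orm3 transcripts at 86.5% of 772, so how reads were divided among them is uncertain.

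Serpina3n, the protease inhibitor, differed little between diets. It stood at 340, 355, 376 and 295 FPKM in chow WT and at 387, 135, 297 and 321 FPKM in HFD WT, where replicate 2 was the exception. In KO-labelled mice it stood at 110, 98.0, 256 and 222 FPKM on chow and at 197, 115, 242 and 261 FPKM on HFD. The differences were -0.35 (SE 0.36, adjusted p = 0.457) and 0.30 (SE 0.36, adjusted p = 0.533). The transcripts of 4 related Serpina3 genes matched its transcript at 79.9% to 82.9% of aligned bases, which leaves the assignment of reads among them uncertain.

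Between the genotype labels, no member passed the threshold on either diet. On chow, 0 of 8 members were called, against 1.41% of all tested genes (0.426% higher and 0.979% lower), and 2 of 8 had an unadjusted limma p under 0.05, as did 14.7% of all tested genes. One was Serpina3n, lower in all 4 chow KO libraries than in any chow WT library (-1.11, SE 0.36, unadjusted p = 0.0082, adjusted p = 0.171), and the other was Saa3 (-1.27, SE 0.58, unadjusted p = 0.046, adjusted p = 0.331), for which the highest chow KO library lay within the chow WT range. Serpina3n was the 1 member of 8 whose groups did not overlap, against 15.2% of all tested genes.

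The 8 members had a median difference of -0.79 between the labels on chow, against 0.09 for all tested genes, with 5 of 8 lower in KO-labelled mice. Lcn2 was one of the 3 with a positive difference (1.25, adjusted p = 0.766), and without chow KO replicate 2 its difference was -1.06 (adjusted p = 0.563). Summed hepatocyte markers also differed on chow, at 40.9 to 334 FPKM in WT-labelled and 8.92 to 27.6 FPKM in KO-labelled libraries. Of 11 tested hepatocyte markers, 0 were called between these labels. An unadjusted limma p under 0.05 was found for 9, against 14.7% of all tested genes. Their part in the differences of the members was not tested. On HFD, 0 of 8 members were called, against 0.0316% of all tested genes (0.0237% higher and 0.00789% lower). There, 0 of 8 had an unadjusted limma p under 0.05, against 11.8% of all tested genes. The median difference there was -0.48 against 0.09, 6 of 8 members had a negative difference, and none of the 8 had groups that did not overlap, against 6.83% of all tested genes. The interaction subtracts the diet difference in WT-labelled mice from that in KO-labelled mice. It was called for 0 of 8 members (0.292% of all tested genes, 0.253% positive and 0.0395% negative). For 0 of 8 the unadjusted limma p was under 0.05, against 10.1% of all tested genes, and the lowest adjusted p was 0.73.

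Since adipocyte markers fell with HFD, each member was also set against them within its library, as log2(FPKM + 1) of the member less the mean of the 12 adipocyte markers. This ratio was chosen after seeing the data, and a gene that stays level while the markers fall has a positive difference by construction. The ratio of Hp to the markers was higher on HFD by 2.27 in WT-labelled mice, where the diets did not overlap (exact permutation p = 0.0286, the smallest that 4 against 4 libraries can give; 0.0416 after Benjamini-Hochberg adjustment over 16 tests), and by 1.69 in KO-labelled mice (p = 0.0571, exact). Serpina3n differed by 1.47 and 2.40 without overlap in either genotype, and Orm1 by 0.87 without overlap in WT-labelled mice and by 1.72 with overlap in KO-labelled mice. Saa3 differed by 5.30 and 6.24. In all, diets did not overlap for 7 of 8 ratios in WT-labelled and for 4 of 8 in KO-labelled mice, Cp being the exception in the former. The share of all tested genes whose ratio separates in this way was not computed. Neither the counts nor the p-values of these ratios are therefore a result about the members.

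Within groups, several of the abundant members went up and down together from mouse to mouse. Deviations from the group mean over 16 libraries gave for Hp with Serpina3n a Pearson's r of 0.798 (permutation p = 0.0032) and a Spearman's rho of 0.821 (permutation p = 0.00329). For Hp with Orm1, r was 0.812 (permutation p = 0.00445) and rho 0.818 (permutation p = 0.00725), and for Hp with Cp, r was 0.767 (permutation p = 0.0106) and rho 0.712 (permutation p = 0.00833). Without the 2 libraries in which Hp was farthest from its median deviation, r was 0.786, 0.865 and 0.704. Libraries with more Hp than their group thus tended to have more of the other 3.

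Saa3 and Lcn2 stood apart from that set. Saa3 had r = -0.199 (permutation p = 0.596) and rho = -0.171 (permutation p = 0.623) with Hp, and r was 0.066 without HFD WT replicate 3 and HFD KO replicate 1. With Lcn2 it had r = 0.436 (permutation p = 0.0495) and rho = 0.382 (permutation p = 0.126), and r was 0.431 without the same libraries. With the adipocyte marker score, the mean log2 level of the 12 markers, Saa3 had r = -0.757 (permutation p = 0.0137) and rho = -0.8 (permutation p = 0.00062), and r was -0.7 without HFD WT replicate 1 and HFD KO replicate 1. Orm1 had r = 0.665 (permutation p = 0.0116) and rho = 0.65 (permutation p = 0.0192) with that score, and r was 0.521 without the same libraries. A macrophage marker score was made in the same way. With it, r was -0.677 for Orm1 (permutation p = 0.00296) and -0.72 for Cp (permutation p = 0.0227). It was -0.673 for Hp (permutation p = 0.0372) and 0.544 for Saa3 (permutation p = 0.153). Without HFD WT replicate 1 and HFD KO replicate 4, these were -0.582, -0.574, -0.552 and 0.567. Over the 44 relations computed, the lowest Benjamini-Hochberg adjusted permutation p was 0.064 for Pearson's r, reached by Hp with Orm1, Serpina3n and Cp among others, so none passed. For Spearman's rho, 1 relation passed, Saa3 with the adipocyte score (adjusted permutation p = 0.0273). The libraries share their cell mix across all these genes, and its part in the correlations was not tested.

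**Figure D3:**
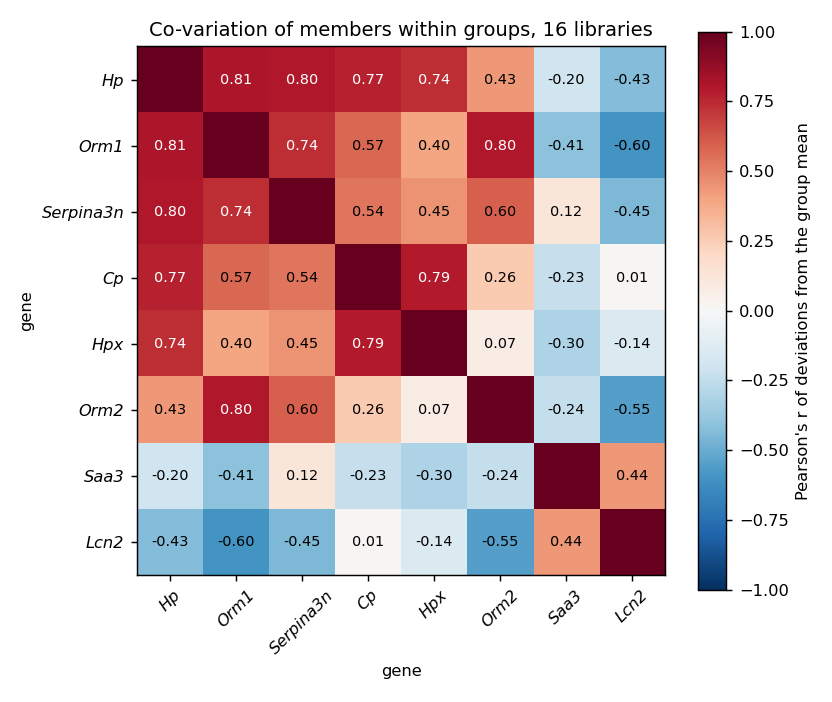
Pearson's r between the 8 tested members, from log2(FPKM + 1) after subtracting each group's mean, over 16 libraries; red is positive and blue negative. Hp, Orm1, Serpina3n, Cp and Hpx form a block of positive values from 0.396 to 0.812, while Saa3 and Lcn2 are mostly negative with it.

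By the same measure over all tested genes, the profile most like Serpina3n was that of its neighbour Serpina3m (r = 0.930), before Gbe1 (r = 0.910) and Ubxn8 (r = 0.867). H2-Q10 (r = 0.923), Orm3 (r = 0.876) and Aldoa (r = 0.862) were nearest to Orm2. Mgst2, a microsomal glutathione S-transferase (r = 0.952), Mrps28 (r = 0.936) and Kin (r = 0.920) were nearest to Hp. Ogfod3 (r = 0.951), Dcxr (r = 0.924) and Dgcr6 (r = 0.922) were nearest to Cp, and Trappc5 (r = 0.889), Carf (r = 0.875) and Eci2 (r = 0.868) to Hpx. Mtarc1 (r = 0.942), Fasn, fatty acid synthase (r = 0.941), and Sult1a1 (r = 0.939) were nearest to Orm1, and Fgr, a kinase of myeloid cells (r = 0.924), Il17ra (r = 0.917) and Clcf1 (r = 0.903) to Saa3. For Lcn2 they were Nav2 (r = 0.976), Csnk2b (r = 0.975) and Cx3cl1 (r = 0.974), and Nav2 also peaked in chow KO replicate 2, at 35.9 FPKM.

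The cytokines and factors that induce acute-phase genes changed in part. Of 28 tested inducers and signalling genes, 9 rose and 5 fell with HFD in WT-labelled mice, and 15 rose and 2 fell in KO-labelled mice (median 0.27 and 0.58). That is 50.0% and 60.7% of the list called, against 41.9% and 38.9% of all tested genes. Tnf rose by 1.27 (adjusted p = 0.00325) and 1.43 (adjusted p = 0.00197), while remaining low at 2.45 ± 1.26 and 3.13 ± 1.37 FPKM on HFD. On chow it stayed under 1 FPKM, at 0.20 to 0.590 FPKM in WT-labelled and 0.30 to 0.790 FPKM in KO-labelled mice. Only HFD libraries, where it was high, thus brought Tnf into the test. Il1rn, the interleukin 1 receptor antagonist, rose the most, from 0.975 ± 0.266 to 66.5 ± 59.3 FPKM in WT-labelled and from 0.745 ± 0.544 to 37.0 ± 16.98 FPKM in KO-labelled mice.

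Il6 did not reach the level for testing, with a highest value of 1.42 FPKM in HFD KO replicate 1. Il1b was at most 0.460 FPKM in chow WT and 0.650 FPKM in chow KO, so only HFD libraries brought it into the test. It differed by 0.34 (adjusted p = 0.714) in WT-labelled mice. In KO-labelled mice it rose by 1.78 (adjusted p = 0.0472), on values of 25.8, 1.46, 8.02 and 0.180 FPKM on HFD, and only 3 of the 20 alternatives in which it was tested kept that call; without HFD KO replicate 4 the rise was 2.49 (adjusted p = 0.00264). Stat3 differed by -0.09 (adjusted p = 0.65) and 0.24 (adjusted p = 0.206). Socs3, its feedback inhibitor, and Cebpb passed in KO-labelled mice (1.17 and 1.11, adjusted p = 0.00743 and 0.00348) and not in WT-labelled mice (0.58 for both, adjusted p = 0.138 and 0.0734), and the interaction was not past the threshold for either (adjusted p = 0.713 and 0.69).

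Cebpd and Il6ra, which encode the C/EBP delta factor and the interleukin 6 receptor, were the inducers that differed by genotype label. Cebpd stood at 36.8, 48.0, 37.9 and 55.4 FPKM in chow WT and at 11.6, 10.2, 9.11 and 21.6 FPKM in chow KO. On HFD it stood at 11.4, 7.46, 9.82 and 9.70 FPKM in WT-labelled and at 12.4, 14.6, 8.68 and 18.2 FPKM in KO-labelled mice, so that chow WT was apart from the other 3 groups. It was lower in KO-labelled mice on chow by -1.74 (SE 0.25, adjusted p = 0.0023), fell with HFD in WT-labelled mice by -2.10 (adjusted p = 3.9e-05), and differed by 0.07 between diets in KO-labelled mice (adjusted p = 0.857). Its interaction was 2.16 (adjusted p = 0.0192).

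Il6ra was lower in chow KO (12.2 ± 2.30 FPKM) than in chow WT (27.1 ± 1.42 FPKM; -1.10, adjusted p = 0.0023), fell with HFD in WT-labelled mice (-0.66, adjusted p = 0.00419) and rose in KO-labelled mice (0.68, adjusted p = 0.00401), with an interaction of 1.33 (adjusted p = 0.0192). The interaction calls are not firm: that of Cebpd was lost without chow WT replicate 2 (adjusted p = 0.0543) or 4 (0.0613) or without the 3 libraries with epididymal genes (0.0706), and that of Il6ra without chow WT replicate 2 (0.0577), 3 (0.0551) or 4 (0.0613) or with a replicate block (0.0802). The genotype and diet calls of both genes held in all 27 alternatives.

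**Figure D4:**
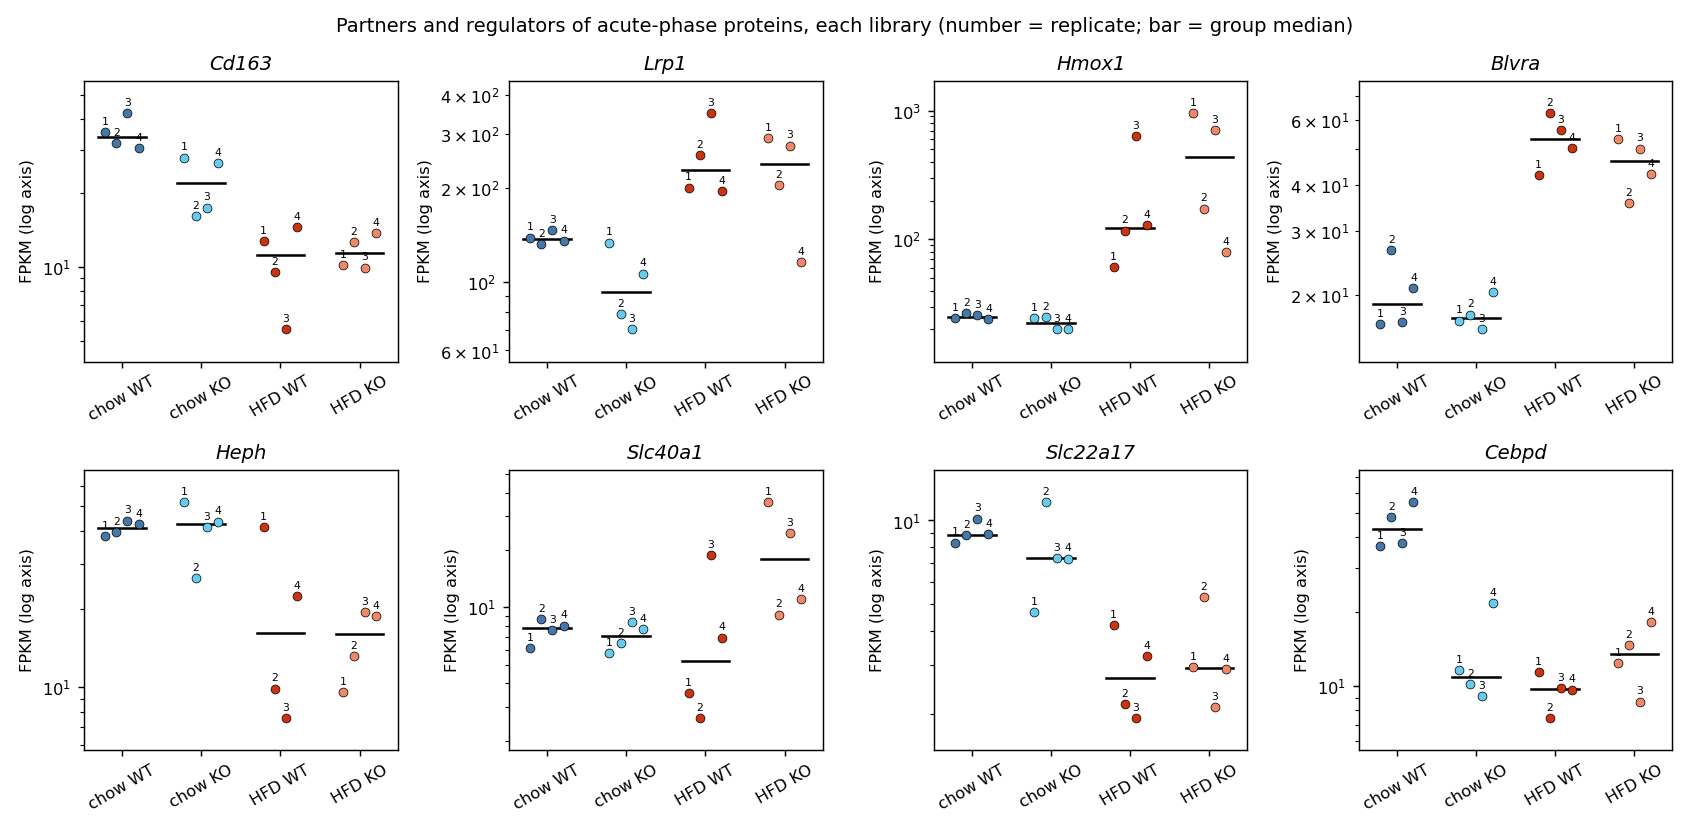
FPKM of 8 partner, iron and inducer genes in each of the 16 libraries, on log axes; points are libraries with their replicate number and bars are group medians. Hmox1 and Blvra are higher and Cd163 lower in all HFD libraries than in the chow libraries of the same genotype, and Cebpd is highest in chow WT.

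Among receptors and partners of the members, some rose and some fell. Of 12 tested, 4 rose and 4 fell with HFD in WT-labelled mice, and 3 rose and 4 fell in KO-labelled mice. The shares called were 66.7% and 58.3%, against 41.9% and 38.9% of all tested genes. Cd163, the macrophage receptor that takes up haptoglobin bound to haemoglobin, fell from 34.9 ± 5.20 to 10.6 ± 3.92 FPKM in WT-labelled mice (-1.70, adjusted p = 0.000147) and from 21.9 ± 6.07 to 11.6 ± 1.87 FPKM in KO-labelled mice (-0.84, adjusted p = 0.0141), although 10 and 11 of the 12 macrophage markers, a list that includes it, rose. Slc22a17, a receptor of lipocalin 2, fell by -1.41 (adjusted p = 0.000595) and -1.01 (adjusted p = 0.00594). Lrp1, the receptor that clears hemopexin bound to haem, rose by 1.14 in KO-labelled mice (adjusted p = 0.00538) and by 0.81 in WT-labelled mice (adjusted p = 0.0283), the latter in 22 of 27 alternatives.

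Among iron and haem genes, those that passed the test were mostly higher on HFD. Of 18 tested, 10 rose and 2 fell with HFD in WT-labelled mice, and 11 rose and 5 fell in KO-labelled mice (median 0.67 and 0.89). The shares called were 66.7% and 88.9%, against 41.9% and 38.9% of all tested genes. In KO-labelled mice 7 to 9 rose and 2 or 3 fell when 1 of 4 libraries was left out (chow KO replicates 1 and 3, HFD KO replicates 1 and 3), and 11 rose and 3 fell without HFD KO replicate 2. Hmox1, which opens the haem ring, stood at 24.1 to 26.9 FPKM in chow WT and at 60.7, 117, 632 and 130 FPKM in HFD WT, and at 20.1 to 25.0 FPKM in chow KO and 951, 173, 704 and 80.1 FPKM in HFD KO. It rose by 2.58 (adjusted p = 0.00935) and 3.75 (adjusted p = 0.00123). Blvra, biliverdin reductase, which takes the next step, rose by 1.35 (adjusted p = 4.97e-05) and 1.29 (adjusted p = 0.000112).

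Heph, hephaestin, a ferroxidase related to ceruloplasmin, was chosen for mention after its values were seen. It stood at 38.5 to 44.0 FPKM in chow WT and at 41.6, 9.88, 7.62 and 22.5 FPKM in HFD WT, and at 26.4 to 52.0 FPKM in chow KO and 9.55 to 19.5 FPKM in HFD KO. Like Cp it fell in both genotypes, by -1.27 (adjusted p = 0.018) and -1.37 (adjusted p = 0.013). In WT-labelled mice, where replicate 1 on HFD kept the chow level, the call was lost without HFD WT replicate 2 (-1.04, adjusted p = 0.0643) or 3 (-0.93, adjusted p = 0.0657). HFD WT replicate 3, with the highest Hmox1 of its group, was also the library with the highest Saa3 of the series, and HFD KO replicate 1 had the highest Hmox1 and Saa3 of its group.

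Of 26 other acute-phase genes tested, the share called for diet was near that of all tested genes, at 42.3% against 41.9% in WT-labelled and 38.5% against 38.9% in KO-labelled mice. With HFD, 2 rose and 9 fell in WT-labelled mice (median -1.11), and 7 rose and 3 fell in KO-labelled mice (median 0.15). The interaction was called by limma for 0 of 26, against 0.292% of all tested genes. An unadjusted limma p under 0.05 was found for 5 of 26, against 10.1% of all tested genes. Those that fell in WT-labelled mice included Serpina1e, an alpha-1-antitrypsin gene (41.4, 12.2, 7.64 and 2.28 FPKM in chow WT), and Apoh (6.54, 3.43, 1.73 and 1.30 FPKM), both highest in chow WT replicate 1, where summed hepatocyte markers were highest at 334 FPKM. In the same comparison, 7 of 11 tested hepatocyte markers fell, against 17.2% of all tested genes. That count ran from 0 to 9 over 27 alternatives, and the part of hepatocyte RNA in these falls was not tested. Of the other acute-phase genes, 4 fell without chow WT replicate 1, HFD WT replicate 2 or HFD WT replicate 3, 5 without chow WT replicate 2 or HFD WT replicate 4, and 14 without HFD WT replicate 1 or without the libraries rich in epididymal genes. In KO-labelled mice, 4 or 5 rose and 1 or 2 fell when 1 of 5 libraries was left out (chow KO replicates 1, 3 and 4, HFD KO replicates 1 and 3).

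Between labels on chow, the metallothionein gene Mt2 was lower in KO-labelled mice (60.2 ± 30.5 against 191 ± 72.5 FPKM; -1.72, adjusted p = 0.0106), a call that held in all alternatives. Mt1, another metallothionein gene, was lower too (-1.18, adjusted p = 0.0346), but its call held in only 16 of 27 alternatives, and without chow WT replicate 1, 2 or 3 or chow KO replicate 3 Mt2 was the 1 gene of the list called. No gene of this list passed limma's test between labels on HFD, against 0.0316% of all tested genes. There, 2 of 26 had an unadjusted limma p under 0.05, against 11.8% of all tested genes.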

How the data were processed

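The authors deposited gene FPKM values with 2 decimals, and per the submitters' processing notes the tools and builds named are STAR 2.7, GRCm38.p6 and mm10. The sources used here do not give the FPKM tool, its annotation or the strand. Of 20101 genes, 12667 with at least 1 FPKM in at least 4 of 16 libraries were tested. limma 3.58.1 was fitted to log2(FPKM + 1) with 4 group means over all 16 libraries, and p-values were adjusted over all tested genes by Benjamini-Hochberg. The code was tested on simulated data. Alternatives changed the scaling, pseudocount, filter, replicate block, samples in the fit, and left out libraries. The labels give 4 mice per group, and precision rests on the spread between them. A further 14408 circular RNA entries were not used. Members and lists were chosen with earlier results of these data known. All 10 members are named. Of each list, up to 4 genes with the smallest p past the threshold in each comparison could be named, and the text names only some of them. Il6, Il1b, Tnf, Stat3, Socs3, Cebpb and Cebpd are named whatever their p. For likeness, the 3 genes with the highest r per member are named, leaving out predicted genes. Ratios to the adipocyte score and correlations were added after seeing the data. Promoters are from RefSeq, for 8 of 10 members. A gene of these lists is not reported here.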

Additional observations from a re-analysis of the deposited data

Results flagged for a closer look

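In all, 40 groups of 4 libraries were checked, 1 for each member and group. Of these, 7 held a library whose gap to the nearest other exceeded Dixon's critical share of the group's range for 4 values. For normally distributed values, chance gives such a gap in about 1 in 20 groups. FPKM were checked untransformed and all 7 values were the highest of their group, so that rate may not hold here. In HFD WT, replicate 3 was far above the other 3 in Saa3 (387.69 FPKM against 74.32 to 93.18) and in Lcn2 (121.19 FPKM against 11.18 to 24.09), and replicate 1 in Orm2 (6.04 FPKM against 2.38 to 2.57). In chow KO, replicate 2 held 2160.65 FPKM of Lcn2 against 1.75 to 4.68 and 0.13 FPKM of Saa2 against 0 in the others. Hpx was 11.56 FPKM in HFD KO replicate 4 against 0.83 to 1.13. The Hp value of chow WT replicate 1, 1358.74 FPKM, stood apart from 1250.62 to 1262.12, a small step in a very even group.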

How the results depend on the processing

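FPKM gives no depth, so low members (Saa1, Saa2, Orm2, Hpx) carry an unknown counting error. Of 1062 values of single members under alternatives, 1021 kept direction and side of the threshold, 8 newly passed (Lcn2 and Orm2, as reported) and 33 turned sign, none of the latter in a comparison where that member was called. The number of members changed was 2 to 3, 2 to 3, 0, 0 and 0 when 1 library was left out. With the replicate block it was 2, 2, 0, 0 and 0. Of 24 correlations between same-numbered libraries, 8 were over 0.1 (-0.63 to 0.367). Without those of differently numbered libraries beside them, these do not tell whether the replicate numbers pair the mice. Without 1 library, differences that turned sign ranged from -0.203 to 0.851 (Hpx) for diet in WT-labelled mice, from -0.869 to 0.128 (Orm1) for diet in KO-labelled mice, and from -1.06 to 2.15 (Lcn2) between labels on chow. Between labels on HFD they ranged from -0.0277 to 0.542 (Cp) and from -1.18 to 0.0739 (Hpx). For the interaction they ranged from -1.39 to 1.82 (Lcn2), -0.111 to 0.559 (Orm2), -0.129 to 0.44 (Cp) and -0.223 to 1.03 (Hpx). Without the 2 libraries rich in epididymal genes, sign turned for Serpina3n in KO-labelled diet (-0.0626), Lcn2 on chow (-1.06), Cp on HFD (-0.0277) and the interaction of Lcn2 (1.8), Orm1 (-0.256), Orm2 (-0.0637), Cp (-0.138) and Hpx (-0.375). Without the 3, it turned for Hpx in KO-labelled diet (-0.00701), Lcn2 on chow (-1.06), Saa3 (0.382) and Cp (-0.163) on HFD, and the interaction of Lcn2 (1.48), Orm1 (-0.334), Orm2 (-0.147), Cp (-0.274) and Hpx (-0.391). Quantile normalization turned the interaction of Orm2 (-0.0126) and moved the median of all genes by -0.104, -0.149 and -0.11 for diet in WT-labelled and KO-labelled mice and labels on HFD. The cause was not tested. Over all tested genes, calls between labels ranged from 55 (without chow WT replicate 2) to 418 (only the groups compared) on chow, where 178 were called, and from 0 (mean FPKM of at least 5) to 19 on HFD, where 4 were called. For the interaction they ranged from 12 (without chow WT replicate 4) to 55, where 37 were called.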
